A study of Mus musculus with 12 samples.

Results

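The levels of 7 genes were followed across all 12 libraries: Rplp0, 4 of its processed copies (Gm8730, Gm9625, Gm14165 and Rplp0-ps1) and the stalk partners Rplp1 and Rplp2. They were taken by symbol and make up 7 of the 32544 genes in the deposited table. They had been picked because Gm8730 and Rplp0 stood out between the macrophage groups, so their macrophage values are given here as a description, without a test. In the fibroblasts the members were tested. The fibroblast contrast was not the one that picked them, though earlier results of these data were known when they were chosen.

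Rplp0 encodes the core protein of the stalk on the large ribosomal subunit. It anchors dimers of the proteins made from Rplp1 and Rplp2, and the stalk recruits the elongation factors to the translating ribosome. Ribosomal protein mRNAs are abundant in nearly every cell, and many have been copied back into the genome as processed pseudogenes, which have no introns and stay close in sequence to the parent mRNA. Rplp0 is also a common reference gene in quantitative PCR.

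RNA was sequenced from bone marrow-derived macrophages (BMDMs) 24 h after seeding and from NIH/3T3 cells, a mouse fibroblast line, after 72 h in medium that BMDMs had conditioned. Each of the 4 groups had 3 libraries. The WT BMDMs came from mice with LysMCre. PHD2cko BMDMs came from mice that carried the conditional PHD2 knockout in addition to LysMCre, on a C57Bl6/J background. PHD2, encoded by Egln1, is a prolyl hydroxylase that marks HIF for destruction when oxygen is present, and the lysozyme M promoter drives Cre in myeloid cells. The controls therefore carry Cre as well. The 3T3 cells carry neither, and by design their groups differ in the medium ("WT medium" and "PHD2cko medium" below). Age is not given in the labels, nor whether the 3 libraries of a group came from separate mice, so errors measure the spread between these libraries, which may be technical. Standard errors of the fits pool that spread over the libraries of all 4 groups. The oxygen condition of the sequenced cultures is not named either.

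Library totals ran from 15516465 to 25199770 counts. Egln1 was at 54.7 to 55.8 counts per 1e6 normalized counts (CPM) in WT BMDMs and at 68.3 to 71.6 CPM in those labelled PHD2cko. It was thus not lower under that label, and a single count per gene does not show the loss of an exon, so groups are named by their labels throughout. The study itself presented PHD2 mRNA measured in BMDMs as confirmation of its knockdown, and reported more HIF1α protein in PHD2cko BMDMs. All 12 macrophage markers had a mean of at least 1 CPM in each BMDM group and all 12 fibroblast markers in each 3T3 group, while Ly6g, Cd3e and Epcam had 0 counts in all 12 libraries. The summed macrophage markers were lower in the BMDMs labelled PHD2cko (24089.7 to 25556 CPM) than in WT BMDMs (28915 to 30051 CPM). Single markers differed in direction, with 8 of the 12 log2 fold changes above 0 and 4 below and a median of 0.05. The lower sum lay mainly in Lyz2 (16423 ± 431 CPM in WT and 11633 ± 445 CPM in PHD2cko, SD, n = 3 each) and Csf1r (4838 ± 129.7 and 4099 ± 241 CPM). The groups of 8 markers did not overlap, against 31.9% of all genes tested. edgeR called 0 of the 12 (0 also at an unadjusted p under 0.05), where 3.38% of all genes were called higher and 3.35% lower and 19% had an unadjusted p under 0.05. The standard errors of the 12 ran from 0.0747 to 0.376 (Lyz2) on the log2 scale. They rest on a spread estimated over all 12 libraries, fibroblasts included, rather than on the BMDM libraries alone. A missing call therefore does not show that a marker was level. In the fibroblasts the summed macrophage markers ran from 25.9 to 28.5 CPM in WT medium and from 129.7 to 515 CPM in PHD2cko medium. All 12 had a mean of at least 1 CPM in PHD2cko medium, against 5 of 12 in WT medium. Between the media, edgeR called 11 of the 12 higher in PHD2cko medium and 0 lower, with a median log2 fold change of 5.19. Of all genes tested, 8.93% were called higher and 6.75% lower in that comparison. Fibroblast replicate 1 in WT medium stood apart from the other libraries of its group. When counts of library pairs were compared by chi-square, the statistic over its degrees of freedom reached 24.8 and 26.9 for the pairs that held replicate 1, but only 2.35 for the other pair.

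The members lie on 7 different chromosomes (GENCODE vM21, GRCm38). Rplp0 (ENSMUSG00000067274.10) has 7 exons at chr5:115559467-115563727 on the plus strand. Gm8730 (ENSMUSG00000063696.7) is a single block at chr8:102864845-102865798 on the minus strand, overlaps no annotated gene and lies 22.04 Mb from Egln1 on the same chromosome. Gm9625 (ENSMUSG00000097906.1) sits at chr13:67810246-67811200 on the plus strand, opposite the antisense gene 4930525G20Rik. Gm14165 (chr2:152353615-152354566) lies in Gm14164 and Rplp0-ps1 (chr3:93278141-93279073) in the Flg locus, both on the strand of their host. Rplp1 (chr9:61913284-61914542) and Rplp2 (chr7:141447370-141451585) are ordinary genes with introns.

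All 4 copies correspond to the coding part of the Rplp0 mRNA, bases 122 to 1075 of the 1358 bases of transcript 201. Gm8730 is the closest copy, with 954 bases, no gap, 12 substitutions and 98.7% identity. Its reading frame is open over all 318 codons, stop codon included, and 9 of its 12 substitutions leave the meaning of the codon as it is. Gm9625 has 24 substitutions and 1 extra base, and its first stop comes at codon 299. Gm14165 has 25 substitutions and lacks 2 bases, with a stop at codon 96. Rplp0-ps1 is the most diverged, with 41 substitutions and 15 missing bases (95.6% identity). Of 74 distinct substitutions, 7 are shared by all 4 copies, and 3 occur only in Gm8730 (A568T, G623A and G679C, given as the Rplp0 base, the position from the first base of the transcript and the base of the copy).

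The stretch below holds all 3 of those positions and shows how few bases tell the parent from the copies that take most of the counts. The Rplp0 stretch spans exon 4 (chr5:115561149-115561245) and exon 5 (chr5:115561333-115561486). It is set beside Gm8730 (chr8:102865180-102865430, minus strand) and Gm9625 (chr13:67810614-67810864, plus strand). All are 251 bases of the GENCODE vM21 transcripts, 5′ to 3′. Capitals in Rplp0 mark the 7 bases at which either copy differs, and capitals in a copy mark its own differences from Rplp0, 6 in Gm8730 and 4 in Gm9625.
Rplp0: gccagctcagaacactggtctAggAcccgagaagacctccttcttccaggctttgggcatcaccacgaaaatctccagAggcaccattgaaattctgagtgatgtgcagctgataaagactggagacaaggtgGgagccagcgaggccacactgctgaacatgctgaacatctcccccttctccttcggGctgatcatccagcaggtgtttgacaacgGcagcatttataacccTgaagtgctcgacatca
Gm8730: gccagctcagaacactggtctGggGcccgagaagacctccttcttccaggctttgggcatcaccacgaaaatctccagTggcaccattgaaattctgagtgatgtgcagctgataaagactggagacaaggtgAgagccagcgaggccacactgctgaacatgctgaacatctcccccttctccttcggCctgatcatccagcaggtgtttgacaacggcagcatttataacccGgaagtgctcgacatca
Gm9625: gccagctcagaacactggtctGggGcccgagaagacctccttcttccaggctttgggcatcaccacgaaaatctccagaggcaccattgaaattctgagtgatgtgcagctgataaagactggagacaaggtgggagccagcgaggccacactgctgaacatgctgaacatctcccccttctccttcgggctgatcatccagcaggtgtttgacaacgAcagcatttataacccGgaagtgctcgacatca

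Cut into all windows of 31 bases, Gm8730 has 924 windows, of which 580 also occur in Rplp0 and 108 occur in no other gene of the transcript set. For Gm9625, 430 of 925 windows are shared with Rplp0 and 320 occur in no other gene. Of the 924 windows in the coding part of Rplp0, 216 are found in no other gene, whereas the 283 transcript bases after the stop codon have no counterpart in Gm8730 or Gm9625. The deposited counts were estimated by Kallisto, which divides a read that fits several transcripts between them. Reads of the parent and of the copies can be told apart only at the differences just listed and beyond the ends of the copies, so each split between parent and copy given below is uncertain, and it was not tested on reads. The sum over the family is uncertain too, since 468 of the 1655 windows in all Rplp0 transcripts and 472 of the 924 of Gm8730 also occur in genes outside the 5. Of the family's windows, 433 are shared with Gm6278, a further processed pseudogene that was not analysed here and shares more of them than any other gene outside the 5.

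**Figure D1:**
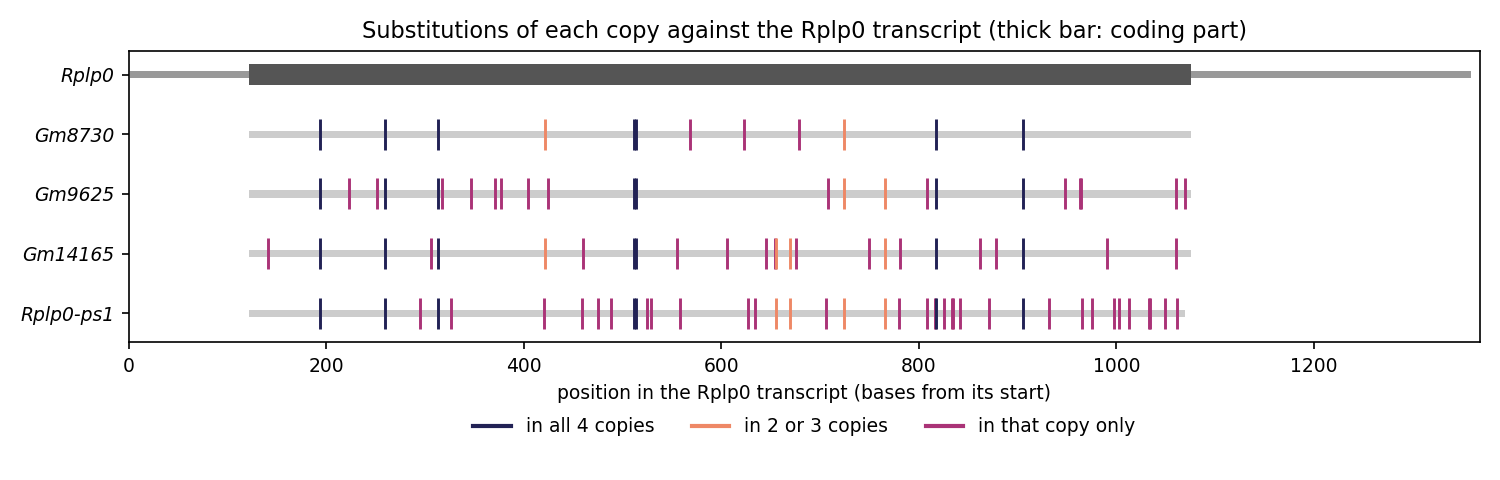
Substitutions of Gm8730, Gm9625, Gm14165 and Rplp0-ps1 (rows) along the Rplp0 transcript (x axis, bases from its start; the thick bar is the coding part). Lines mark substitutions in all 4 copies (dark blue), in 2 or 3 copies (orange) or in that copy only (purple). Gm8730 has 12 lines and Rplp0-ps1 has 41, and none of the copies reaches past base 1075.

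In the BMDMs, counts for the copies were next to absent under the WT label and made up nearly as much of the family as Rplp0 itself under the PHD2cko label. Gm8730 had 5, 0 and 1 counts in WT replicates 1, 2 and 3, and 6068, 5368 and 7641 in PHD2cko replicates 1, 2 and 3. Every library labelled PHD2cko was thus far above every WT library. Over the 3 libraries of each label the normalized counts stood in a ratio of 3065 (exact 95% interval 1408 to 8353, counting error only, since WT rests on 6 counts), and the fitted log2 fold change had a standard error of 0.237. WT replicate 1 holds 5 of those 6 counts, and without it the fitted log2 fold change went from 11.50 to 13.32. In CPM, Gm8730 went from 0.128 ± 0.173 to 379 ± 19.4 (SD, n = 3 each).

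Gm9625 moved the same way from a low but measurable level. It had 28, 13 and 32 counts in WT replicates 1 to 3 and 1369, 1201 and 1386 in PHD2cko replicates 1 to 3. The groups were far apart, at 1.52 ± 0.636 and 79.3 ± 5.69 CPM (SD, n = 3 each), with a log2 fold change of 5.71 (standard error 0.210). Its count was 18.1 to 22.6% of that of Gm8730 in the PHD2cko libraries. Rplp0-ps1 was low in both groups, with 5, 9 and 7 counts in WT (0.325 to 0.545 CPM) and 28, 18 and 17 in PHD2cko (0.892 to 1.70 CPM). Its groups did not overlap either, with a log2 fold change of 1.53 (standard error 0.469). Gm14165 had at most 10 counts in any BMDM library and did not pass the filter on low counts. Its 2, 3 and 1 counts in WT and 4, 10 and 8 in PHD2cko give a ratio of 3.53 (exact 95% interval 1.39 to 10.7, counting error only).

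Rplp0 itself was lower in each library labelled PHD2cko than in any WT library. Its counts were 19731, 20531 and 21763 in WT replicates 1 to 3 and 9012, 7597 and 9984 in PHD2cko replicates 1 to 3. Its level was 1283 ± 40.6 CPM in WT and 529.997 ± 15.0 CPM in PHD2cko (SD, n = 3 each), which is 0.413 of the WT level in the fit (standard error of the log2 value 0.0873). In all, 5 of the 7 members had groups that did not overlap, 4 of them higher and 1 lower under the PHD2cko label. Of all genes tested, 31.9% had groups without overlap (16.3% higher, 15.6% lower), and 6.73% were called in either direction. These members had been chosen on this contrast, so nothing follows from their number.

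The higher level of the copies was smaller than the deficit of the parent. Per library, Rplp0 and its 4 copies summed to 1283.5, 1244 and 1327 CPM in WT and to 1000.4, 969.5 and 999 CPM in PHD2cko. The lowest WT sum was above the highest PHD2cko sum. The mean difference was -753 CPM for Rplp0 and 458 CPM for the copies together, 60.8% of the deficit. The fitted log2 fold change of the sum was -0.38 (standard error 0.0852), against a median of 0.00 over all 14285 genes. Adding the copies back therefore left a smaller difference in the direction of Rplp0 alone.

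**Figure D2:**
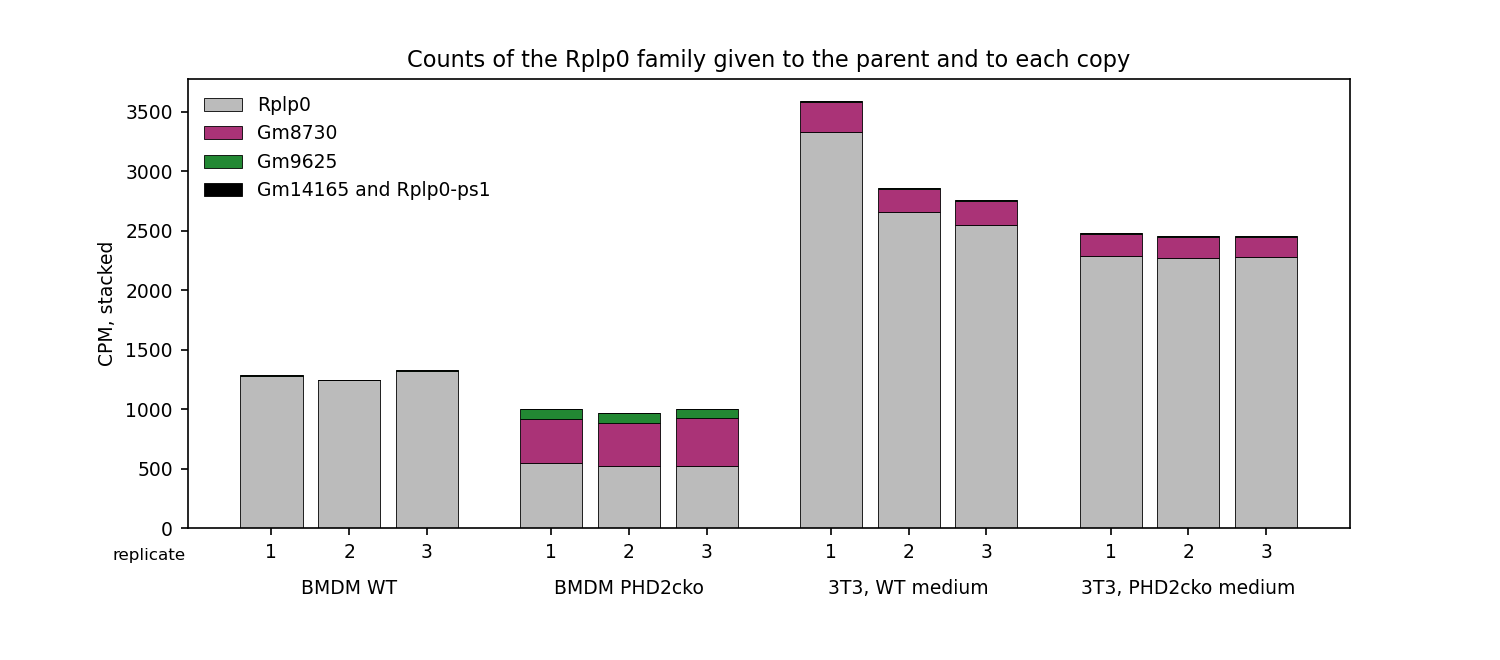
Counts per 1e6 normalized counts (y axis, CPM) of Rplp0 and its copies, stacked for each of the 12 libraries (x axis, replicates 1 to 3 of each group). Gm8730 and Gm9625 appear as coloured blocks on top of Rplp0 in the 3 PHD2cko BMDM libraries, where the stacks end between 969.5 and 1000.4 CPM, below the WT stacks at 1244 to 1327 CPM. In the fibroblasts Gm8730 forms a thin block in all 6 libraries.

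The copies took 0.202%, 0.122% and 0.188% of the family counts in WT replicates 1 to 3, each with a 95% Wilson interval between 0.0824 and 0.275%. In PHD2cko replicates 1 to 3 they took 45.3% (Wilson 44.6 to 46.1), 46.5% (45.7 to 47.3) and 47.6% (46.8 to 48.3). The lowest PHD2cko library was thus far above the highest WT library. Gm8730 alone held 38.3 ± 1.70% and Gm9625 8.02 ± 0.641% (SD, n = 3 each). Per length of transcript, which corrects for the shorter copies, the share was 55.2 ± 1.11%, and Gm8730 stood at 397 ± 20.3 CPM per kb beside 390.3 ± 11.03 for Rplp0. On that scale, Rplp0 and its copy did not differ beyond their spread.

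The stalk partners had groups that overlapped. Rplp1 was at 579.9, 573 and 575 CPM in WT replicates 1 to 3 and at 614, 599 and 518 CPM in PHD2cko replicates 1 to 3. Rplp2 was at 309.99, 309 and 314 CPM in WT and at 325, 324 and 294 CPM in PHD2cko. For both genes the overlap came from PHD2cko replicate 3, while replicates 1 and 2 were above every WT library. That library also stood apart in the comparison of library pairs, with a chi-square over its degrees of freedom of 8.42 and 7.41 against 2.14 for replicates 1 and 2. The fitted log2 fold changes were 0.00 (standard error 0.0970) for Rplp1 and 0.02 (standard error 0.111) for Rplp2, and without replicate 3 they were 0.07 and 0.06. As a result the ratio of Rplp0 counts to Rplp1 counts went from 2.23 ± 0.0698 to 0.923 ± 0.0777, and that of the family sum to Rplp1 from 2.23 ± 0.0705 to 1.73 ± 0.176 (SD, n = 3 each). The ratio of Rplp1 to Rplp2 was 1.85 ± 0.0190 in WT and 1.83 ± 0.0652 in PHD2cko.

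**Figure D3:**
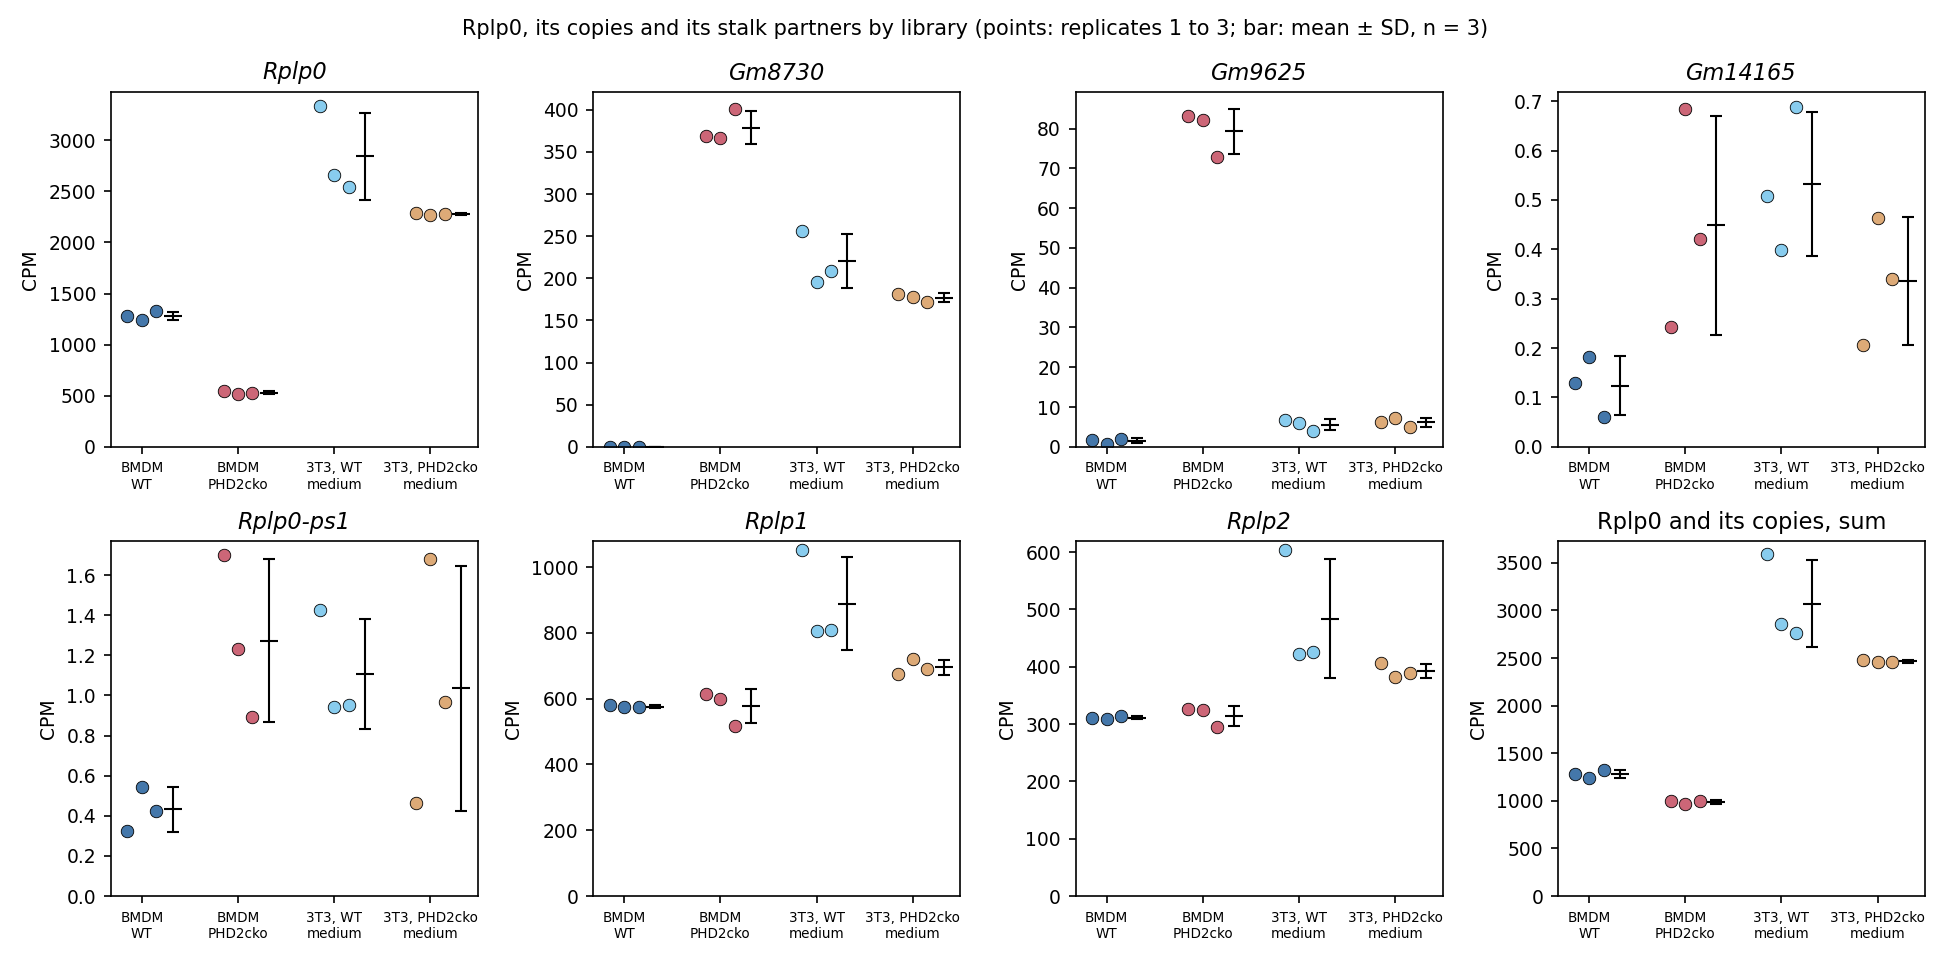
Level of each member and of the family sum in CPM (y axes from 0, scales differ), with 1 point per library and the mean ± SD (n = 3) for the 4 groups. In BMDMs labelled PHD2cko, Rplp0 is low while Gm8730 and Gm9625 are high, and Rplp1 and Rplp2 overlap with WT. In the fibroblasts, replicate 1 in WT medium is the highest fibroblast point for Rplp0, Gm8730, Rplp1 and Rplp2.

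The other cytosolic ribosomal protein genes, none of which had chosen the members, showed no such fall. Of 79 genes, all of them tested, edgeR's quasi-likelihood test called 0 higher and 0 lower in the BMDMs labelled PHD2cko, where 3.38% of all genes tested were called higher and 3.35% lower. At an unadjusted p under 0.05, which 19% of all genes tested met in either direction, 3 were higher and 0 lower. DESeq2 and limma-voom, which also drew on all 12 libraries, called 0 in either direction as well. Fitting the BMDM libraries alone, without the spread of the fibroblasts, called 13 higher and 1 lower. Their log2 fold changes ran from -0.22 to 0.49 with a median of 0.04, so both Rplp0 and the family sum lay below all 79. Of 19 genes for stalk assembly, elongation and stalk sensing, 1 was called higher and 0 lower, with 3 and 1 at an unadjusted p under 0.05. DESeq2 and limma-voom gave the same counts of 1 and 0, and the fit of the BMDM libraries alone called 2 higher and 0 lower. The gene called was Gcn1 (listed as Gcn1l1), a ribosome-bound activator of the kinase Gcn2, which rose from 96.3 ± 1.56 to 162 ± 2.56 CPM (SD, n = 3 each, log2 fold change 0.75, Benjamini-Hochberg adjusted p = 0.000100 in edgeR's quasi-likelihood test). Gcn1 lies on chromosome 5, as Rplp0 does, and the genes beside Rplp0 were not looked up.

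**Figure D4:**
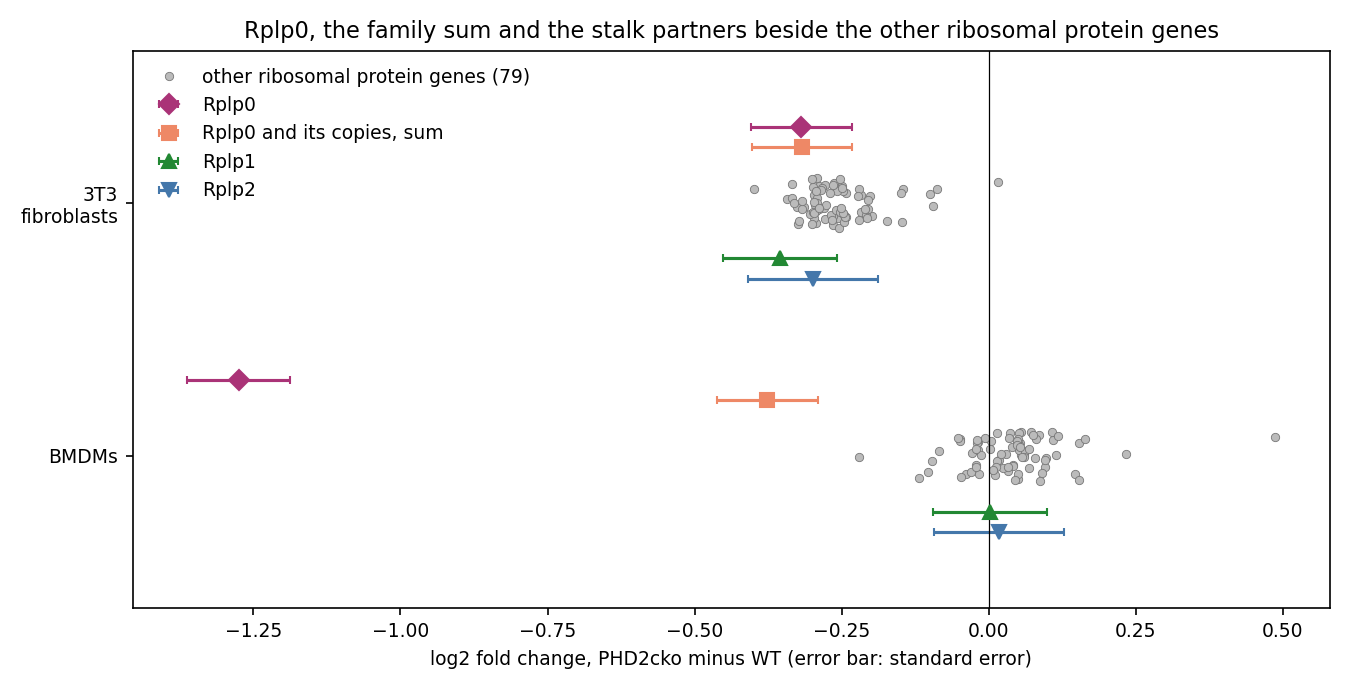
Log2 fold change between the PHD2cko and WT labels (x axis) for 79 other ribosomal protein genes (grey), Rplp0, the family sum, Rplp1 and Rplp2 (coloured, with standard errors), in BMDMs and in 3T3 fibroblasts. In BMDMs Rplp0 and the family sum lie left of all grey points, which span -0.22 to 0.49. In fibroblasts all 4 coloured points lie among the grey ones, which span -0.40 to 0.02.

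Among 22 common reference genes, 4 rose past the threshold in the BMDMs labelled PHD2cko and 0 fell, where 3.38% of all genes tested were called higher and 3.35% lower. At an unadjusted p under 0.05, which 19% of all genes met in either direction, 7 were higher and 1 lower. DESeq2 and limma-voom likewise called 0 lower, and the fit of the BMDM libraries alone called 8 higher and 1 lower. Pgk1 (log2 fold change 0.85) and Gapdh (0.61) encode glycolytic enzymes, Tfrc (0.79) the transferrin receptor and Tubb5 (0.27) a tubulin. The largest of their adjusted p-values was 0.0183 (edgeR). Among those not called were Actb, Hprt, Tbp, Ppia, Ppib, B2m, Sdha, Ywhaz, Gusb, Polr2a, Rpl13a, Rpl19, Rpl32, Rps18, Eef2 and Eef1a1, with log2 fold changes from -0.13 (Actb) to 0.21 (Gusb). Rplp0, also used as a reference gene, was at -1.28 as a row of its own and at -0.38 when summed with its copies, and the split between them is uncertain.

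The same kind of shift was looked for in other ribosomal protein families. Pseudogene transcripts that match a ribosomal protein mRNA over at least 80% of their length with at least 90% identity were counted as its copies, which gave 847 copies with a row in the table and 79 families other than that of Rplp0 with at least 100 counts in every library. In BMDMs, 6 of these families (7.59%) had copy shares that did not overlap between the labels, 2 of them with a higher share under PHD2cko. The median absolute shift was 0.0596 percentage points and none came near the 46.3 points of the Rplp0 family. The 5 next largest were Rpl11 (-5.06 points, groups apart), Rps6 (4.87), Rpl10a (-4.02), Rps23 (-2.58) and Rpl15 (-2.38), the last 4 with overlapping groups. In fibroblasts 6 of the 79 families (7.59%) were without overlap as well, and 39 of the 79 shifted at least as much as the Rplp0 family. Among the larger shifts there were those of Rps12 (-2.46 points), Rpl23a (-2.33), Rpl35a (-2.26) and Rpl34 (-1.97). Copies of the partners were hardly counted in BMDMs. The 8 copies of Rplp1 together took 0.0143% of their family in WT and 0 in PHD2cko, and the single copy of Rplp2 had 0 counts in all 12 libraries.

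**Figure D5:**
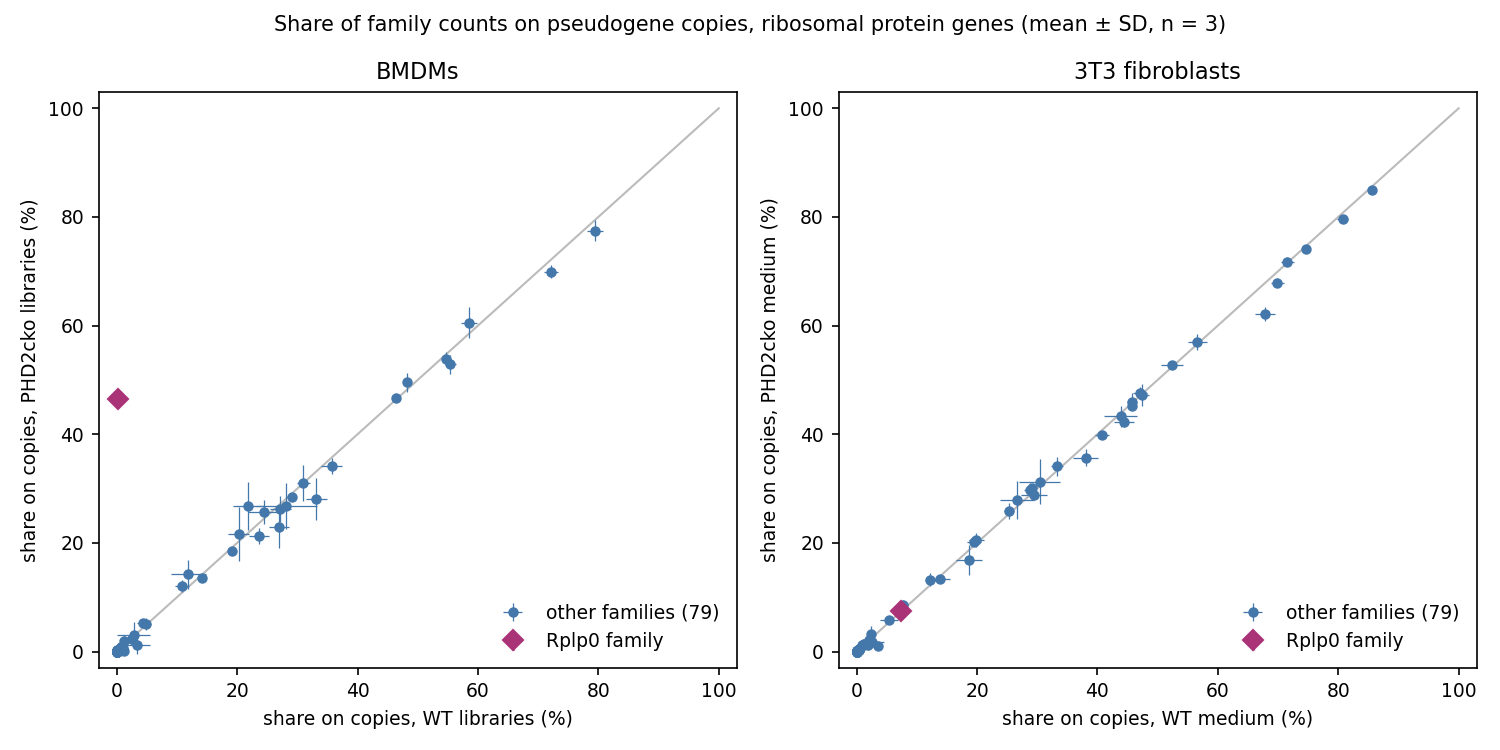
Mean share of family counts on pseudogene copies (in percent, ± SD, n = 3) under the WT label (x axis) and the PHD2cko label (y axis) for the Rplp0 family (diamond) and 79 other ribosomal protein families, in BMDMs (left) and 3T3 fibroblasts (right). The grey line marks equal shares. With Gm4866, a further match to Rplp0, counted as a copy, the Rplp0 family lies far from that line in BMDMs, at 0.171% against 46.5%, and on it in fibroblasts, at 7.41% against 7.49%.

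In the fibroblasts the copies were counted in both media. Rplp0, its closest copy and its partners all had lower means in PHD2cko medium, but only Rplp0 and Rplp1 passed the threshold. Rplp0 was at 3331, 2656 and 2546 CPM in WT medium replicates 1 to 3 and at 2292, 2272 and 2277 CPM in PHD2cko medium replicates 1 to 3. The groups did not overlap, and replicate 1 in WT medium was the highest of all. Rplp0 fell by 0.32 on the log2 scale (standard error 0.0858, adjusted p = 0.0252 by edgeR's quasi-likelihood test over all genes, two-sided). Rplp1 fell by 0.35 (standard error 0.0969, adjusted p = 0.0271, edgeR), from 1051.8, 806 and 808 CPM to 675, 721 and 689 CPM. Thus 2 of the 6 members tested were called lower and 0 higher, where 6.75% of all genes were called lower and 8.93% higher (15.7% in either direction). For Rplp2 the log2 fold change was -0.30 (adjusted p = 0.0901, edgeR), with 603, 423 and 425 CPM in WT medium and 407, 383 and 389.7 CPM in PHD2cko medium.

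For Gm8730 the difference in the fibroblasts was of the same size as for its parent but did not pass the threshold. It was at 256, 196 and 208 CPM in WT medium and at 182, 178 and 171 CPM in PHD2cko medium, and the groups did not overlap. Its log2 fold change was -0.31 with a standard error of 0.105, and edgeR gave an adjusted p = 0.0627. Gm9625 held 4.02 to 6.77 CPM in WT medium and 4.94 to 7.23 CPM in PHD2cko medium, and Rplp0-ps1 0.943 to 1.42 and 0.462 to 1.68 CPM, both with overlapping groups (adjusted p = 0.731 and 0.901, edgeR). Gm14165 had 4 to 13 counts in the fibroblast libraries and was not tested. Altogether 4 of the 7 members, all lower in PHD2cko medium, had groups without overlap, against 31.9% of all genes tested (15.4% higher, 16.5% lower). The sum of Rplp0 and its copies fell by 0.32 (standard error 0.0850, adjusted p = 0.0245, edgeR), from 3072 ± 457 to 2465 ± 14.0 CPM (SD, n = 3 each).

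These fibroblast calls rest on few libraries. Without replicate 1 in WT medium the log2 fold change was -0.17 for Rplp0 (adjusted p = 0.0308, edgeR), -0.17 for the sum (0.0272), -0.20 for Rplp1 (0.0547), -0.17 for Gm8730 (0.0602) and -0.09 for Rplp2 (0.249). Without replicate 1 or replicate 3 in PHD2cko medium, the calls of Rplp0, Rplp1 and the sum were lost, with adjusted p from 0.0702 to 0.0930 (edgeR). They were also lost when the fibroblast libraries were fitted alone, with adjusted p from 0.106 to 0.121 (edgeR). Without replicate 2 in WT medium, Gm8730 (0.0408) and Rplp2 (0.0450) passed the threshold, and Rplp2 also without replicate 3 (0.0421, edgeR). The macrophage markers given above moved with the medium too, and in bulk RNA fewer cells of a type cannot be told apart from less RNA per cell. Whether either has a part in these differences was not tested.

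The way the family divides between parent and copies did not differ detectably between the media. The copies took 7.37%, 7.11% and 7.75% in WT medium and 7.60%, 7.63% and 7.24% in PHD2cko medium, with overlapping groups. The difference of the means was 0.0811 percentage points (exact permutation test, two-sided, p = 0.8, where 3 libraries against 3 cannot go below 0.1). Nearly all of the share was Gm8730, at 7.18 ± 0.345% and 7.19 ± 0.179% (SD, n = 3 each), and Gm9625 held only 0.146 to 0.207% and 0.201 to 0.294%. The count of Gm9625 was 2.53 ± 0.551% of that of Gm8730 in WT medium and 3.47 ± 0.586% in PHD2cko medium. The BMDMs labelled PHD2cko, at 21.02 ± 2.50%, thus had another proportion of these copies than the 3T3 cells. The ratio of the family sum to Rplp1 was 3.46 ± 0.0751 and 3.55 ± 0.131 in the 2 media (exact permutation p = 0.4).

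Other ribosomal protein genes were lower in PHD2cko medium as well. Of the 79 genes, 33 were called lower and 0 higher by edgeR (68 and 0 at an unadjusted p under 0.05, which 29.2% of all genes met in either direction), where 6.75% of all genes were called lower. DESeq2 called 48 lower and limma-voom 37, both with 0 higher. The median log2 fold change was -0.26 against 0.00 over all genes tested, and 8 of the 79 were at or below the value of Rplp0. Among the largest falls of those called were Rps21 (-0.40), Rps6 (-0.34), Rpl23 (-0.33) and Rpl17 (-0.33), all structural proteins of the ribosome. The count of genes called lower depended on single libraries, at 20 without replicate 1 and 58 without replicate 3 in WT medium, and at 6, 15 and 8 without replicates 1, 2 and 3 in PHD2cko medium. It was 1 when the fibroblast libraries were fitted alone.

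In the list of stalk assembly, elongation and stalk sensing, 8 of 19 genes were called lower in PHD2cko medium and 0 higher (edgeR, 10 and 0 at an unadjusted p under 0.05), where 6.75% of all genes tested were called lower and 8.93% higher. DESeq2 and limma-voom also called 8 and 0. Eif2ak4, which encodes the kinase Gcn2 that senses stalled ribosomes, fell by 0.37, Sbds, which helps release the mature large subunit, by 0.29 and the elongation factor subunits Eef1g and Eef1d by 0.28 and 0.25. Eef2k, the kinase of elongation factor Eef2, fell by 0.25 (largest adjusted p of these 5, 0.0409, edgeR). Without replicates 1, 2 and 3 in PHD2cko medium, 3, 5 and 3 genes of the list were called, and 2 in the fit of the fibroblasts alone. Of the reference genes, Gusb (0.38) and Pgk1 (0.31) were called higher, and Eef2 (-0.23) and Eef1a1 (-0.23) were among the 3 called lower, with adjusted p up to 0.0357 (edgeR).

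Between the cell types the order of the members differed. Per kb of transcript, Rplp0 was highest in 3T3 cells in WT medium (2094 ± 313 CPM per kb), then in PHD2cko medium (1679 ± 7.79), in WT BMDMs (945 ± 29.9) and in BMDMs labelled PHD2cko (390.3 ± 11.03). These 4 levels did not overlap. For Gm8730 the order was another one, with the BMDMs labelled PHD2cko highest (397 ± 20.3 CPM per kb), then the fibroblasts in WT medium (231 ± 33.3) and in PHD2cko medium (186 ± 5.49), and WT BMDMs at 0.135 ± 0.181. Gm9625 had 83.0 ± 5.96 CPM per kb in BMDMs labelled PHD2cko and 1.59 ± 0.666 to 6.45 ± 1.21 in the other groups, of which the fibroblasts in the 2 media did not differ beyond their spread.

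The genes whose pattern was most like that of Rplp0 over the 12 libraries, by Pearson's r of log2(CPM + 1), were Sgk1 (0.990), Pdia3 (0.985), Xpnpep1 (0.984), Ssr1 (0.984) and Mthfd2 (0.983), and the most opposite were Rgs11 (-0.995), Asph (-0.994) and Slc39a12 (-0.988). For Gm8730 they were Pfkl (0.987), Wdfy1 (0.985), Tpi1 (0.976), Mif (0.965) and Gm18180 (0.958), and at the other end Ifit2 (-0.976), Pydc3 (-0.955) and Ppp1r15b (-0.951). Pfkl, for instance, had 41.6 CPM in WT BMDMs and 89.2, 87.1 and 92.6 CPM in the other groups, so it shared with Gm8730 the low group. The 12 points form 4 groups and the libraries of a group share cells and handling, so these values describe a pattern over 4 groups. By Spearman's rho, 0 of the 5 most alike genes were the same, for Rplp0 and for Gm8730.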

How the data were processed

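The authors deposited estimated counts per gene, as whole numbers. Kallisto and the mouse build GRCm38 were used, on reads from polyA RNA sequenced from a single end, and the values carry no normalization. The Kallisto version, its transcript set and window length, strand handling and the rounding are not given in the sources used here. The table holds 32544 genes in 12 libraries, and 0 columns could not be mapped to a sample.

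Counts were fitted with edgeR 4.0.16 in R 4.3.3 (filterByExpr with the 4 groups, 14285 genes kept, TMM, quasi-likelihood test, two-sided, Benjamini-Hochberg adjustment over all genes kept, threshold 0.05), with all 12 libraries in 1 fit, since the groups then share an estimate of the spread. The study itself used limma-voom. CPM are counts per 1e6 counts of library size after TMM scaling. For the family sum, Rplp0 and its 4 copies were replaced by 1 row and the fit was repeated. Shares have 95% Wilson intervals, ratios of summed counts exact binomial ones, and both cover counting error only. Shares and ratios in fibroblasts were compared with exact permutation tests (scipy 1.17.1). Copies were aligned to the Rplp0 transcript of GENCODE vM21 with Biopython 1.88, and pseudogenes of other ribosomal protein genes were found with BLAST 2.17.0 among 141767 transcripts. The pipeline was tested on simulated data.

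The members and the gene lists were chosen with earlier results of these data known. Named are the 7 members, up to 5 genes per list, comparison and direction with the largest log2 fold change past the threshold, all listed reference genes, the 5 genes most like and the 3 least like Rplp0 and Gm8730, Egln1, and the 5 families with the largest shifts. Some genes that this rule names, and an allele that both BMDM groups carry, are not reported here. Gcn1 matched under its older symbol. Alternatives were DESeq2's size factors, DESeq2 1.42.0, limma 3.58.1 with voom, at least 10 counts in every library of a cell type, no filter beyond 1 count, fits within a cell type, a block for replicate number, leaving out single libraries, Gm8730 as the only copy, and copies of at least 97% identity. A share per length of transcript and Gm4866 as a further copy were added after seeing the data. Promoters and protein sequences were not used here, and Gm6278, another match to Rplp0, was not analysed here.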

Additional observations from a re-analysis of the deposited data

Results flagged for a closer look

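The log2 fold change of Gm8730 had opposite signs in the 2 cell types, and in both the PHD2cko and WT libraries did not overlap. It was 11.50 in BMDMs, where the copy was chosen for it and no test was made, and -0.31 in fibroblasts between PHD2cko and WT medium, which did not pass the threshold (adjusted p = 0.0627, edgeR). The difference between the cell types was not tested. Groups of 3 are too small for the check for single outlying libraries.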

How the results depend on the processing

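Without WT replicates 1, 2 and 3 of the BMDMs, the log2 fold change of Gm8730 there was 13.32, 10.92 and 11.18, a range over all 6 libraries left out of 10.92 to 13.32, and limma-voom gave 11.91. The WT value rests on 6 counts, and whether that accounts for these moves was not tested. Those of Rplp0 (-1.30 to -1.25 with a library left out, -1.28 over the other settings), Gm9625 and the family sum (-0.40 to -0.35) moved by less than the spread between replicates. Fitting the cell type alone ended the fibroblast calls of Rplp0 (-0.31, adjusted p = 0.121, edgeR), of the sum (-0.31, adjusted p = 0.121, edgeR) and of Rplp1 (-0.34, adjusted p = 0.106, edgeR). With a library left out, Rplp0 and the sum kept their direction, from -0.39 to -0.17, and the call in 4 of 6 fits. Gm8730 in fibroblasts passed the threshold with DESeq2 (adjusted p = 0.0139), limma-voom (0.0359) and no filter (0.0460). The sign reversed for Gm9625 in fibroblasts without WT medium replicate 3 (-0.0406, range with a library left out -0.0406 to 0.277) and for Rplp0-ps1 without PHD2cko medium replicate 1 (0.25) or WT medium replicate 1 (0.13, range -0.61 to 0.25), none of which passed the threshold. It also reversed for the copy share without WT medium replicate 2 (-0.0675, range -0.0675 to 0.251 points). The permutation test of that share cannot go below 0.2 with a library left out, so it could not pass.

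With the cell type alone, 13 ribosomal protein genes were higher and 1 lower in BMDMs, 2 stalk and elongation genes higher, and 8 reference genes higher and 1 lower. In fibroblasts the same fit called 1 ribosomal protein gene and 2 stalk and elongation genes lower, and 0 reference genes higher and 1 lower. DESeq2 called 6 reference genes lower in fibroblasts. With a library left out, the counts lower in fibroblasts ran from 6 to 58, from 3 to 9 and, for reference genes, from 1 to 6, and reference genes higher from 1 to 5. The cause was not tested. Whether libraries with the same replicate number are paired is not given. Deviations of same-numbered libraries correlated between -0.0822 and 0.0418, and those of differently numbered ones between -0.0900 and 0.0888, so no pairing was seen, which does not show how the cultures were set up. With the number as a block, Rplp0 in fibroblasts stayed called (-0.31, adjusted p = 0.0376, edgeR), as did the sum (adjusted p = 0.0359, edgeR), and 22 ribosomal protein genes were lower there and 1 higher in BMDMs, while the block gave p = 0.75 for the copy share by an exact sign-flip test that cannot go below 0.25. The share per length differed by 0.109 points between the media (exact permutation p = 0.8). Copies of at least 97% identity gave 7 families without overlap in BMDMs and 6 in fibroblasts. Depth limits Gm14165 and Rplp0-ps1, which had at most 29 counts in any library.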

Other observations

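The nearest tested protein coding genes beside the copies were looked up after the values of the copies had been seen. Gm8730 lies 79.2 kb from Cdh11, a cadherin gene, and 1361 kb from Tk2, the mitochondrial thymidine kinase. In BMDMs, Cdh11 was at 0.225 ± 0.122 CPM in WT and 0.511 ± 0.164 CPM in PHD2cko (SD, n = 3 each; adjusted p = 0.178, edgeR), and Tk2 at 51.7 ± 0.93 and 55.2 ± 2.41 CPM (adjusted p = 0.466, edgeR). In 3T3 cells Cdh11 was abundant, at 159.7 ± 5.56 CPM in WT medium and 139 ± 11.9 CPM in PHD2cko medium (adjusted p = 0.0631, edgeR). Gm9625 lies between the zinc finger genes Zfp493 (17.7 kb away) and Zfp273 (2.54 kb away), whose log2 fold changes in BMDMs were 0.45 and 0.17 (adjusted p = 0.193 and 0.567, edgeR). None of these 4 neighbours passed the threshold in either cell type. Flg, the host of Rplp0-ps1, averaged 0.0406 to 0.107 CPM in the 4 groups.

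Among the copies of the partners, Gm11942, a copy of Rplp1 with 97.4% identity, was the only one with more than 2 counts in any library. It averaged 67.7 and 44.7 counts in fibroblasts in WT and PHD2cko medium and at most 1 count in BMDMs. Another match to Rplp0, Gm4866 (91.2% identity), had at most 2 counts in any library.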
